A study of Mus musculus with 16 samples.

Results

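The comparison described here set the 3 CA1 libraries labelled N3 -/- against the 3 labelled wild type, all from mice of the spatial exploration condition. These are 6 of the 16 samples of the series, and 6 of the 10 whose values were used. A gene entered where its FPKM (fragments scaled to transcript length and library depth) was at least 1 in at least 2 of the 6 libraries, which took in 11577 of the 19156 genes listed for the condition and left out 7579. The rule used expression levels over both labels together and no difference between them. The wild type mice and the N3 -/- mice, which the design text describes as NEIL3-deficient, were males aged 3 to 6 months, and the labels give the same background, C57Bl6, for both without naming a substrain. How the Neil3 allele was made, which exons it lacks, and whether the wild type mice were littermates are not given in the sources used here. The protocol, shared by all samples, describes 1 trained condition, with sessions of 20 min per day for 1 week in a walled arena of 50 cm by 50 cm with a cue card and food cues, and killing 20 min after the last session. It does not say separately what the mice labelled spatial exploration did. CA1 was cut out of frozen sections of 8 µm by laser dissection. The libraries are named below by their label and a number that has no further meaning, as WT-labelled 1 to 3 and KO-labelled 1 to 3.

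NEIL3 is a DNA glycosylase: it starts base excision repair by cutting oxidised bases out of DNA, prefers single-stranded DNA, and also unhooks crosslinks between DNA strands at replication forks. In the brain it is known mainly from neural stem and progenitor cells. CA1 is the hippocampal subfield whose pyramidal cells act as place cells during exploration, and a stay in an arena induces immediate early genes such as Fos and Arc in a part of them.

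The summed values were of like size in the 6 libraries, at 436179 to 466710 FPKM, with 11114 to 11448 genes at 1 FPKM or more. The spacing of low values gave an estimated depth of 18450000 to 19300000 fragments per library. A single fragment on 1 kb of transcript then adds 0.0518 to 0.0542 FPKM. Pearson correlations of log2(FPKM + 1) ran from 0.994 to 0.997 between WT-labelled libraries, from 0.989 to 0.994 between KO-labelled libraries and from 0.988 to 0.992 between the labels. Along the first principal component, with 40.3% of the variance, the labels were apart. The second took 28.8% and spread the KO-labelled libraries, with KO-labelled 1 at 16.9, KO-labelled 2 at 0.492 and KO-labelled 3 at -14.8, while the WT-labelled libraries lay between -3.14 and 1.15. The design text counts 3 animals per label. The limma p-values below set a difference against the spread among libraries of the same label, moderated by that of other genes. Those that involve the home cage pool the spread of all 10 libraries.

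Neil3 itself went against the labels. It was listed at 0, 0 and 0.05 FPKM in WT-labelled 1, 2 and 3, against 15.1, 11.9 and 8.35 FPKM in KO-labelled 1, 2 and 3. The groups did not overlap, and every KO-labelled library was the higher. The KO-labelled mean was 11.8 ± 3.39 FPKM (SD, n = 3), and the difference between the means was 11.8 FPKM (two-sided exact permutation test, p = 0.1, the smallest that the 20 arrangements of 3 against 3 allow). In the fit across all genes the adjusted p was 1.65e-05. The same held in the home cage, where both WT-labelled libraries were listed at 0 and the KO-labelled pair at 13.8 and 15.2 FPKM. The table gives 1 value per gene, so it does not show which exons the fragments came from, and a transcript that is still made from a disrupted allele would be counted too. All directions below are given by label, as KO-labelled against WT-labelled, and depend on the labels in this respect.

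Each gene was tested with limma on log2(FPKM + 1), and a gene was called at a Benjamini-Hochberg adjusted p under 0.05. The test called 37 of the 11577 genes, 0.32% of them: 14 were higher in the KO-labelled libraries (0.121%) and 23 were lower (0.199%). In all 37 the 3 libraries of one label lay above the 3 of the other. That alone was common: over all tested genes, 11.7% had all KO-labelled libraries above all WT-labelled ones and 13.4% had them all below. An unadjusted p under 0.05 was common as well, in 2086 genes or 18.0%. The median log2 change of all tested genes was -0.012. Of the 37, 12 changed by at least 1 on the log2 scale and 25 by less. Many genes lay close to the threshold, with 68 at an adjusted p from 0.05 to 0.06 and 191 from 0.05 to 0.1. The count rested on single libraries: it was 10 without WT-labelled 1, 8 without WT-labelled 2, 13 without WT-labelled 3, 151 without KO-labelled 1, 16 without KO-labelled 2 and 33 without KO-labelled 3. Of the 37 genes, 10, 8, 11, 37, 13 and 24 were still called in those 6 fits. The 8 that were called in every one of them were Neil3, Ccl21b, Gm3893, Srp54c, Erdr1, Wdfy1, Mid1 and Gabra2. In bulk tissue, fewer cells of a type and less RNA per cell cannot be told apart.

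**Figure D1:**
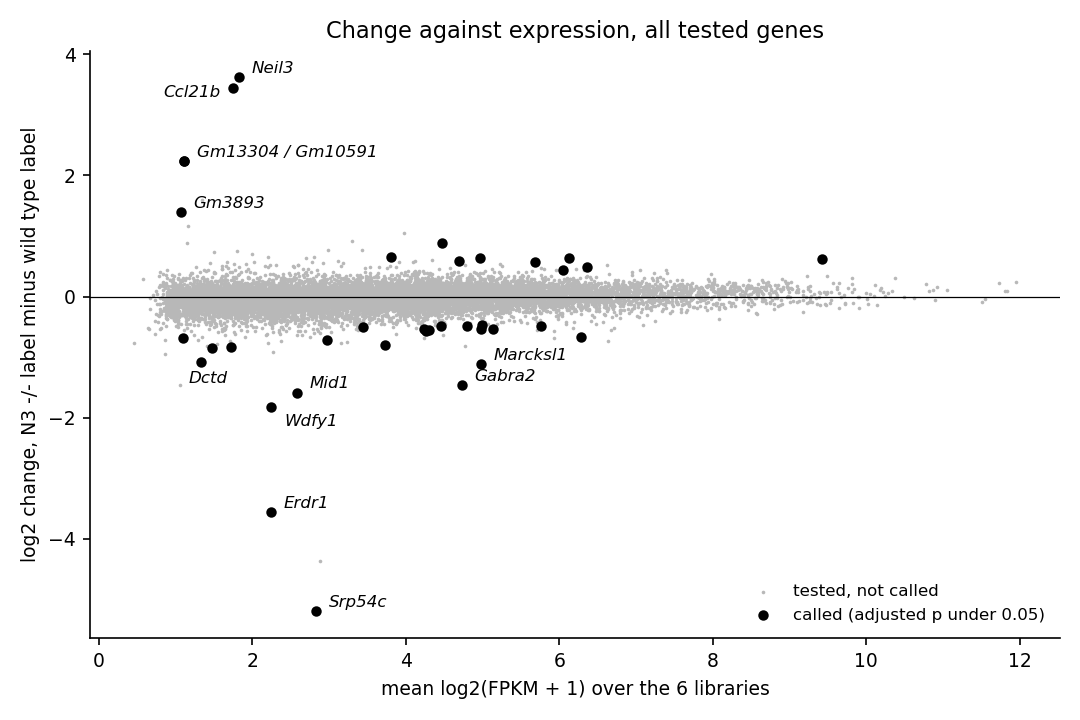
Log2 change (KO-labelled minus WT-labelled, on the log2(FPKM + 1) scale) against the mean log2(FPKM + 1) of the 6 libraries, for the 11577 tested genes. Black points are the 37 called genes, and those that changed by at least 1 are named. The uncalled grey point near -4.37 is Ttr, which was high in WT-labelled 1 and 2 only.

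Of the 37, 5 reached 1 FPKM in KO-labelled libraries alone (Neil3, Ccl21b, Gm13304, Gm10591 and Gm3893) and 3 in WT-labelled libraries alone (Srp54c, Erdr1 and Gpr101), so those 8 entered the test through the group in which they were high. The other 29 reached 1 FPKM in at least 1 library of each label. At the edge of the filter, Hspbap1, Tln1 and Lig1 had a second-highest value of 1 FPKM and entered, while Klhl40, Trip11 and Plcxd2, at 0.99 FPKM, did not.

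**Figure D2:**
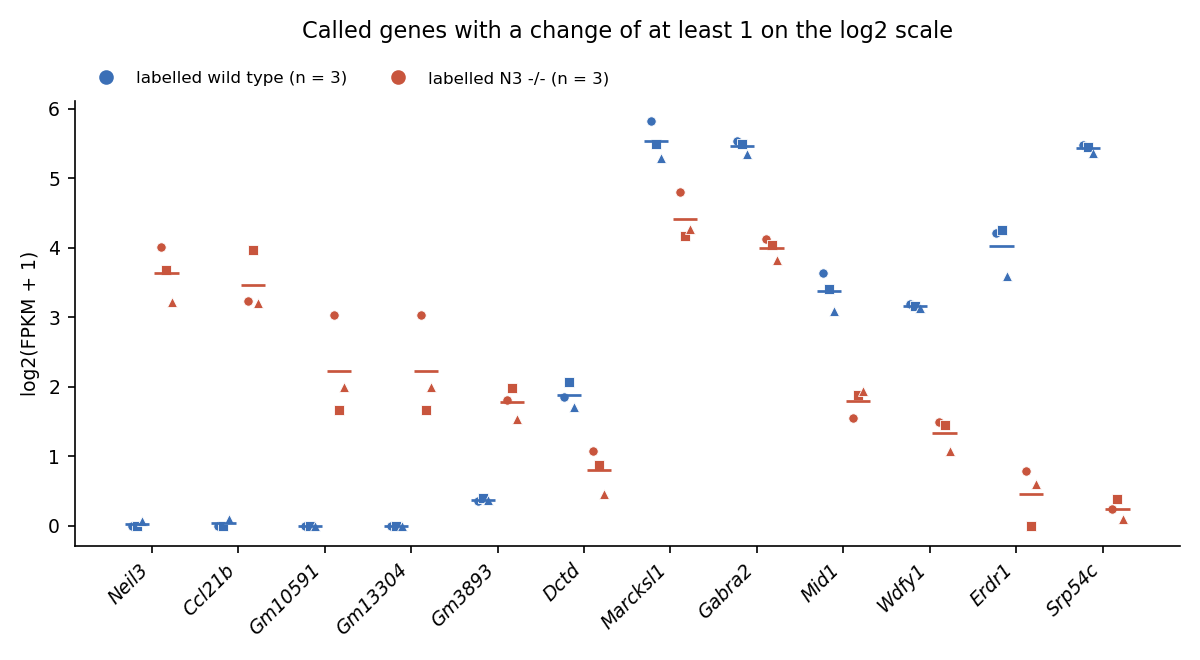
Log2(FPKM + 1) in each of the 6 libraries for the 12 called genes that changed by at least 1 on the log2 scale, ordered by the change. Blue marks are WT-labelled, red marks KO-labelled, circles, squares and triangles are libraries 1, 2 and 3, and bars are means. In each gene the 2 colours are apart, widest in Srp54c at 42.7 against 0.3 FPKM in libraries 2.

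Srp54c showed the largest fall. It is 1 of 3 neighbouring mouse genes on chromosome 12 for SRP54, the GTPase subunit of the signal recognition particle, which brings ribosomes that make secreted proteins to the endoplasmic reticulum. Srp54c (NCBI gene 100101806, chr12:55230118-55279331 in GRCm38.p6) stood at 43.4, 42.7 and 40.4 FPKM in WT-labelled 1, 2 and 3 and at 0.18, 0.3 and 0.07 FPKM in KO-labelled 1, 2 and 3. The means were 42.2 ± 1.61 and 0.183 ± 0.115 FPKM (SD, n = 3 each), a log2 change of -5.19 (SE 0.0955, adjusted p = 3.77e-09). Srp54b, at 34.1, 35.2 and 36.2 against 37.4, 36.2 and 40.9 FPKM, was not called (log2 change 0.11, adjusted p = 0.412). Srp54a, at 17.5, 18.0 and 17.9 against 17.2, 15.95 and 13.9 FPKM, was not called either (log2 change -0.17, adjusted p = 0.317). The 3 genes summed to between 94.4 and 95.8 FPKM in the WT-labelled libraries and between 52.5 and 54.9 FPKM in the KO-labelled ones. The copies are hard to tell apart by sequence. In the GENCODE transcripts, Srp54c matched Srp54b at 99.7% of aligned bases and Srp54a at 99.5%, and 88.0% of the 100-base windows of Srp54c, the length of a read, occurred unchanged in a transcript of Srp54b. The division of fragments among the 3 is therefore uncertain, and their sum less so. Promoter windows of 300 bases from the RefSeq-based table are shown for Srp54c and Srp54a because they mark how alike the copies are near a start of transcription. The start that the table uses lies inside the outer boundary of each gene, so the window of Srp54c begins within the span given above, and the windows are not placed alike relative to the gene boundaries. They aligned over 275 columns with 263 identical bases (95.6%). Capitals mark bases that differ between them or face a gap in that alignment.
Srp54c, chr12:55230127-55230426, plus strand: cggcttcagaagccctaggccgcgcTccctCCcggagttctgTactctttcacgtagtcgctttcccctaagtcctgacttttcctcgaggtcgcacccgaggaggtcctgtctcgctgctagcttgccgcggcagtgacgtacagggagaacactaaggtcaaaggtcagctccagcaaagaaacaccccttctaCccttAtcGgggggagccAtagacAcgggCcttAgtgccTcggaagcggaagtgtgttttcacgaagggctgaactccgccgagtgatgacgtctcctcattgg
Srp54a, chr12:55080246-55080545, plus strand: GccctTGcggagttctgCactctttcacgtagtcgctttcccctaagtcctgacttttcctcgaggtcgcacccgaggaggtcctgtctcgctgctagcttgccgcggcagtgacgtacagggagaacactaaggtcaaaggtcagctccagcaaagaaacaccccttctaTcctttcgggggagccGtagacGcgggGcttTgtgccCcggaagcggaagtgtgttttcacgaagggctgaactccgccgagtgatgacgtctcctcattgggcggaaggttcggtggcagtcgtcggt
The matched stretch of the window of Srp54b, 91 bases long, had no difference from that of Srp54c.

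The other SRP genes on the list did not follow Srp54c. Of the 10 tested, Srp54c among them, Srp54c alone was called. The median log2 change of the 10 was 0.06 against -0.012 over all tested genes. Every KO-labelled library was higher in 3 of the 10 (30%, against 11.7% of all tested genes). In 2, Srp54c included, every one was lower (20%, against 13.4%). Srp9 stood at 81.4, 79.3 and 83.4 against 103.6, 86.3 and 87.1 FPKM (adjusted p = 0.288), and Srp72 at 37.02, 37.05 and 36.25 against 39.8, 38.3 and 39.1 FPKM (adjusted p = 0.485). The gene next to Srp54c, 12.95 kb away, is 1700047I17Rik2, at 17.2, 16.2 and 16.2 FPKM in the WT-labelled and 10.2, 9.03 and 8.1 FPKM in the KO-labelled libraries (log2 change -0.80, SE 0.0899, adjusted p = 0.00744). Its call was lost without WT-labelled 1 (adjusted p = 0.0546), WT-labelled 2 (0.0572) or KO-labelled 2 (0.0611).

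On the other side, 4 of the 5 largest rises came from 1 stretch of chromosome 4. Ccl21b encodes CCL21, a chemokine that draws lymphocytes and dendritic cells through the receptor CCR7, and Gm13304 and Gm10591 are predicted genes of the same family. Ccl21b (chr4:42173120-42256825) was listed at 0, 0 and 0.07 FPKM in the WT-labelled and 8.41, 14.6 and 8.26 FPKM in the KO-labelled libraries (log2 change 3.44, SE 0.186, adjusted p = 3.3e-05). Gm13304 (chr4:42114787-42115917) and Gm10591 (chr4:42612123-42613253) had the same listed value in every library. It was 0 in all WT-labelled libraries, and 7.21, 2.17 and 2.98 FPKM with the KO label (adjusted p = 0.0152). Since both genes carry the same values, they amount to 1 measurement. Their call was lost without WT-labelled 1, 2 or 3 (adjusted p = 0.0546, 0.0743 and 0.0637). No fold is given for these genes, because the WT-labelled libraries are listed at or close to 0. Ccl21a, on the same chromosome at chr4:42772860-42773991, was listed at 0 in all 6 libraries.

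Ccl21b, too, cannot be told from Gm13304 or Gm10591 by the windows of its transcript, though most of them are not found in Ccl21a. All 303 windows of 100 bases in the GENCODE transcript of Ccl21b also occur in those of Gm13304 and of Gm10591, and 119 of them (39.3%) in that of Ccl21a. In the other direction, 303 of the 738 windows of Gm13304 (41.1%) occur in the transcript of Ccl21b. The windows around the starts of Gm13304 and Gm10591 in RefSeq have the same 300 bases, so only the first is printed, beside that of Ccl21a, to show how few bases separate a copy listed with expression from the copy listed at 0. They aligned over 299 columns with 296 identical bases (99.0%), and the capitals mark the 3 that differ.
Gm13304, chr4:42114537-42114836, plus strand: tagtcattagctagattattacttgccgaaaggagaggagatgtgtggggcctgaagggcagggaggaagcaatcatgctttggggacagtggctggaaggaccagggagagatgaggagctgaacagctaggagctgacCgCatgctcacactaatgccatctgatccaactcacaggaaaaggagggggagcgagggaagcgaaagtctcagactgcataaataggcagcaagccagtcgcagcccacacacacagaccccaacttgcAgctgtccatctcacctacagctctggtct
Ccl21a, chr4:42773942-42774241, minus strand: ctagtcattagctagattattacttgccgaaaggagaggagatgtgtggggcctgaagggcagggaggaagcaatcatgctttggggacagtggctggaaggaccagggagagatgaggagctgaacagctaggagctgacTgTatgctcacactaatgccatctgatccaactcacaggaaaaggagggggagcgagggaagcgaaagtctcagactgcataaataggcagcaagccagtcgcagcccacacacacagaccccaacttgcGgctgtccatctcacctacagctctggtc
The remaining called gene of this stretch was Gm3893 (chr4:42089373-42092930). It was at 0.28, 0.32 and 0.29 FPKM with the WT label and 2.49, 2.95 and 1.9 FPKM in the KO-labelled libraries, a ratio of means of 8.25 (log2 change 1.40, SE 0.133, adjusted p = 0.00236). The 3 KO-labelled libraries stood well apart from the WT-labelled ones. Ccl19, the other CCR7 ligand, lay between 0 and 0.72 FPKM in the 6 libraries and was not tested. The 38 tested genes within 1 Mb of this group included these 4 called genes and no others. Of the rest, Ubap1 was at 23.5, 24.3 and 22.6 against 27.7, 26.6 and 27.7 FPKM (adjusted p = 0.162), and Creb3 at 30.3, 29.3 and 28.6 against 27.7, 27.5 and 27.2 FPKM (adjusted p = 0.449).

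Erdr1 and Mid1 formed another group, at the distal end of the X chromosome. Mid1 encodes a ubiquitin ligase bound to microtubules and crosses the pseudoautosomal boundary in laboratory mice, and Erdr1 lies 19.7 kb beyond its end. Erdr1 (chrX:170010526-170018797) was at 17.5, 18.1 and 11.04 FPKM in the WT-labelled and 0.72, 0 and 0.52 FPKM in the KO-labelled libraries (log2 change -3.56, SE 0.224, adjusted p = 8.12e-05). Mid1 (chrX:169685199-169990798) was at 11.5, 9.56 and 7.53 against 1.93, 2.69 and 2.85 FPKM, or 3.83 times lower in the KO-labelled mean (log2 change -1.59, SE 0.153, adjusted p = 0.0024). In both genes, WT-labelled 3 was the lowest of its group and still above every KO-labelled library. Of the other genes tested within 1 Mb, G530011O06Rik, which lies inside the span of Mid1, was at 1.7, 1.9 and 1.41 against 0.72, 1.19 and 0.71 FPKM, lower in every KO-labelled library but not called (log2 change -0.52, adjusted p = 0.116). Hccs, which makes the haem lyase of cytochrome c, was at 9.84, 9.57 and 9.44 against 12.1, 11.8 and 10.1 FPKM and was not called (adjusted p = 0.238). In all, 8 of the 37 called genes lay within 1 Mb of another called gene, in 3 places. Since these include the near-identical chromosome 4 copies, and since 6 of the 8 entered the test through 1 group alone, their shared directions are given as values only.

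Wdfy1 and Gabra2 were the other large changes that no single library decided. Wdfy1 encodes an early endosomal protein with a FYVE domain. It was at 8.12, 7.93 and 7.82 FPKM in the WT-labelled and 1.8, 1.74 and 1.11 FPKM in the KO-labelled libraries (log2 change -1.82, SE 0.12, adjusted p = 0.000102). The WT-labelled libraries differed by little and were 5.13 times higher on average. Gabra2 encodes the alpha-2 subunit of the GABA-A receptor, the chloride channel opened by GABA, and alpha-2 is a subunit of synapses onto pyramidal cells, among them those on the axon initial segment. It was at 45.7, 44.0 and 39.9 FPKM in the WT-labelled and 16.4, 15.5 and 13.2 FPKM in the KO-labelled libraries. The means were 43.2 ± 3.0 and 15.1 ± 1.66 FPKM (SD, n = 3 each), 2.87 times lower with the KO label (log2 change -1.46, SE 0.0921, adjusted p = 8.12e-05).

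Of the 11 GABA-A receptor subunits tested, Gabra2 was the only one called, and the median log2 change of the 11 was 0.03, a sign that turned with other scalings and left-out libraries (-0.017 to 0.081). Gabra5, whose receptors carry tonic inhibition in CA1, was the highest by FPKM, at 222.6, 214.4 and 249.5 in the WT-labelled and 259.0, 254.7 and 265.1 in the KO-labelled libraries. Its groups did not overlap, and it was not called (log2 change 0.18, adjusted p = 0.23). Gabrb2 was at 53, 49.1 and 54.4 against 54.7, 55.8 and 49.1 FPKM (adjusted p = 0.883). Gabra4 was at 32.1, 27.4 and 36.8 against 42.8, 40.0 and 33.8 FPKM (log2 change 0.27, adjusted p = 0.265), with KO-labelled 3 inside the WT-labelled range. Of the lower-expressed subunits, Gabra3 ran from 20.1 to 22.9 against 16.9 to 24.7 FPKM (adjusted p = 0.835) and Gabrd from 9.52 to 11.5 against 9.44 to 10.96 FPKM (adjusted p = 0.813). Gabrb1, which lies on chromosome 5 beside Gabra4 and near Gabra2, was at 6.8, 7.88 and 6.77 against 4.73, 6.62 and 5.96 FPKM. Its groups did not overlap and it was not called (log2 change -0.27, adjusted p = 0.26). Gabrg1, at 1.66, 1.56 and 1.19 against 2.01, 1.76 and 1.47 FPKM, overlapped (adjusted p = 0.542). In the order of the mean FPKM, Gabra2 stood between Gabrb2 (52.2) and Gabra4 (32.1) with the WT label and between Gabra3 (20.9) and Gabrd (10.2) with the KO label.

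**Figure D3:**
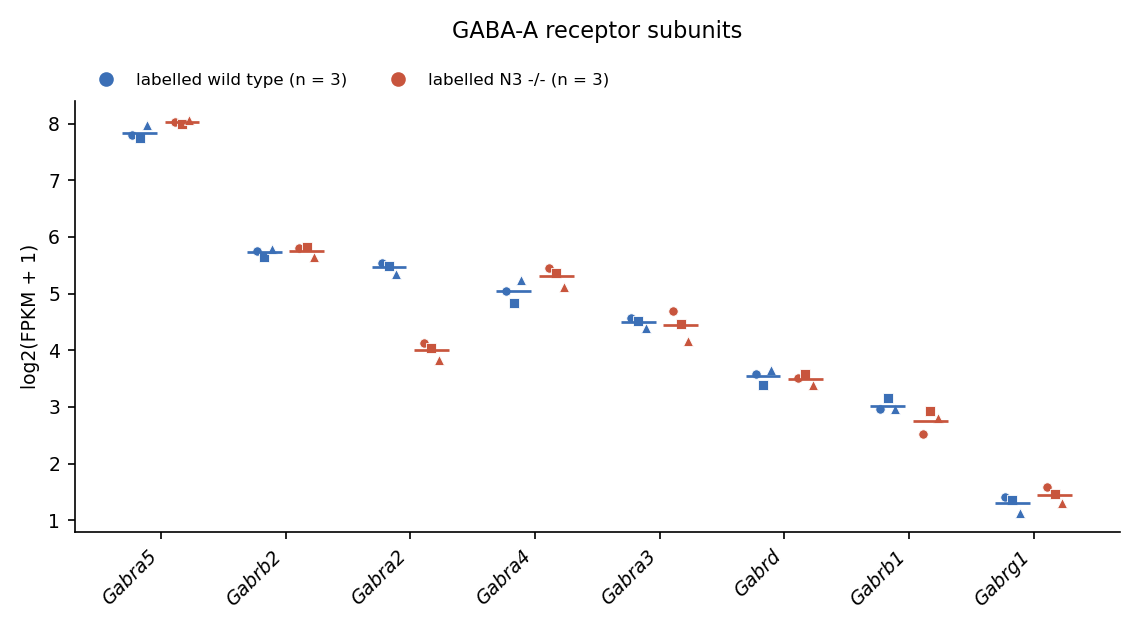
Log2(FPKM + 1) of GABA-A receptor subunits in each library, ordered by the WT-labelled mean. Blue marks are WT-labelled, red marks KO-labelled, circles, squares and triangles are libraries 1, 2 and 3, and bars are means. Of the subunits plotted, the labels are far apart in Gabra2 alone, at 39.9 to 45.7 against 13.2 to 16.4 FPKM.

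Nnt encodes the nicotinamide nucleotide transhydrogenase of the inner mitochondrial membrane, which supplies NADPH. It was at 8.9, 9.97 and 8.49 FPKM in the WT-labelled and 5.26, 5.44 and 4.79 FPKM in the KO-labelled libraries, 1.77 times lower (log2 change -0.71, SE 0.0906, adjusted p = 0.0152). The call was lost without WT-labelled 1 (adjusted p = 0.0889), WT-labelled 2 (0.0922), WT-labelled 3 (0.0528) or KO-labelled 2 (0.0635). Nnt, Gabra2, Wdfy1, Srp54c, Erdr1, Mid1 and Ccl21b all belong to a list of genes reported to vary among C57BL/6 stocks. Of its 12 tested members, 1 was called higher and 6 lower, where 0.121% and 0.199% of all tested genes were. The median log2 change was -0.44. Srp54c, Erdr1 and Ccl21b had entered the test through the group in which they were high. The list was drawn up with results of these data known, so the count is not independent evidence. The remaining 5 were not called: Cyfip2, which regulates actin and local translation, was at 202.1, 196.8 and 207.5 against 166.6, 211.3 and 221.7 FPKM (adjusted p = 0.91), and Ide, the insulin-degrading enzyme, at 6.04, 5.62 and 5.15 against 5.8, 5.47 and 6.11 FPKM (adjusted p = 0.837). Entpd4, with Srp54a and Srp54b, made up the rest. Whether the 2 groups of mice came from the same C57Bl6 stock is not given in the sources used here, and its part in these differences was not tested.

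Among other genes lower in the KO-labelled libraries, Marcksl1 was expressed at the highest level of those past 1 on the log2 scale. It encodes an actin-binding protein of the MARCKS family and was at 55.8, 44.0 and 38.4 FPKM in the WT-labelled and 27.0, 17.1 and 18.4 FPKM in the KO-labelled libraries (log2 change -1.12, SE 0.173, adjusted p = 0.0388). Dctd, the deoxycytidylate deaminase that supplies dUMP for thymidylate synthesis, was at 2.6, 3.21 and 2.28 against 1.1, 0.84 and 0.37 FPKM (log2 change -1.08, SE 0.168, adjusted p = 0.0388). Plch1, a phospholipase C, was at 2.28, 3.27 and 2.79 against 1.14, 0.99 and 1.1 FPKM (adjusted p = 0.025). Cd59a, an inhibitor of the complement membrane attack complex, was at 3.26, 3.43 and 3.54 against 1.35, 1.61 and 1.48 FPKM (log2 change -0.83, adjusted p = 0.0096). In these 4 genes every KO-labelled library was below every WT-labelled one. Each lost its call in 3 to 5 of the 6 fits with a library left out. The adjusted p reached 0.138 for Marcksl1 without KO-labelled 2, and 0.148, 0.125 and 0.0743 for Dctd, Plch1 and Cd59a without WT-labelled 2.

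The last 3 of the 14 largest falls were Celf5, Gpr101 and Zfp414. Celf5 encodes a neuronal RNA-binding protein that acts in splicing, and was the most abundant called gene on the lower side. It was at 102.8, 96.5 and 94.2 FPKM in the WT-labelled and 58.5, 69.1 and 55.7 FPKM in the KO-labelled libraries (log2 change -0.68, SE 0.0863, adjusted p = 0.0152). Gpr101, an orphan receptor coupled to G proteins, was at 1.73, 1.69 and 1.76 against 0.85, 0.64 and 0.59 FPKM (log2 change -0.69, adjusted p = 0.0418). Zfp414, a zinc finger gene, was at 22.0, 20.7 and 24.8 against 15.97, 15.01 and 13.57 FPKM (log2 change -0.57, adjusted p = 0.0408). The other 9 called genes on the lower side, which the rule for named genes left out and which are named after their values were seen, changed by -0.55 to -0.46. They were Ypel4, Atxn2l, Sptbn4, Plekhg5, Palmd, Lmtk3, L1cam, Ap1m1 and Rfng. Sptbn4 encodes the spectrin of the axon initial segment and L1cam a cell adhesion molecule of axons. Sptbn4 was at 34.7, 38.0 and 37.9 against 26.4, 27.1 and 22.4 FPKM (adjusted p = 0.0424), and L1cam at 26.4, 25.6 and 23.3 against 17.4, 17.5 and 18.2 FPKM (adjusted p = 0.0388). Celf5, Gpr101, Zfp414 and these 9 lost their calls in 3 to 5 of the 6 fits with a library left out, always including the 3 fits without a WT-labelled library, where the adjusted p reached 0.249 for Ap1m1 without WT-labelled 1.

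On the higher side, the 9 called genes outside the chromosome 4 group and Neil3 changed by 0.44 to 0.89 on the log2 scale. Bok encodes a pro-apoptotic protein of the Bcl-2 family and is also a marker on the list of CA2 and CA3 pyramidal cells. It was at 19.8, 12.9 and 13.98 FPKM in the WT-labelled and 28.4, 26.8 and 32.4 FPKM in the KO-labelled libraries, 1.88 times higher (log2 change 0.89, SE 0.141, adjusted p = 0.0408). Other markers of that list were highest in KO-labelled 3. Amigo2 was at 6.26, 4.92 and 4.22 against 7.62, 6.06 and 16.9 FPKM (adjusted p = 0.222), and Pcp4 at 56.3, 49.7 and 51.4 against 69.2, 46.3 and 112.6 FPKM (adjusted p = 0.37). Of the 6 markers tested, 5 had a higher KO-labelled mean on the log scale and Bok alone was called. Their median log2 change was 0.51, against -0.012 over all tested genes, and in the home cage it was -1.22. In 3 of the 6 (50%, against 18.0% of all tested genes) the unadjusted p was under 0.05, all on the higher side. Bok alone had every KO-labelled library higher (16.7% of the 6, against 11.7% of all tested genes). The 8 markers summed to 191.0 to 211.9 FPKM in the WT-labelled and 184.4 to 297.6 FPKM in the KO-labelled libraries, none of them at 0 in all libraries, and their part in the result for Bok was not tested. The call for Bok was lost without WT-labelled 2 (adjusted p = 0.138), WT-labelled 3 (0.151), KO-labelled 2 (0.136) or KO-labelled 3 (0.07).

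Lefty1 encodes a secreted antagonist of Nodal signalling. It was at 51.0, 52.6 and 63.0 FPKM in the WT-labelled and 85.8, 81.5 and 92.1 FPKM in the KO-labelled libraries (log2 change 0.63, SE 0.0896, adjusted p = 0.025). Mbnl1, a splicing regulator, was at 23.4, 24.1 and 24.9 against 42.5, 36.97 and 34.5 FPKM (log2 change 0.63, SE 0.0843, adjusted p = 0.0181). Ralb, a small GTPase of the Ras family that acts in exocytosis, was at 10.4, 9.01 and 11.1 against 18.4, 16.6 and 14.8 FPKM (log2 change 0.66, adjusted p = 0.0388). All 3 were separated by label with a gap wider than the range of the WT-labelled libraries. Lurap1l was at 41.8, 40.3 and 41.4 against 63.1, 58.7 and 63.5 FPKM (log2 change 0.57, SE 0.0638, adjusted p = 0.00744), the lowest adjusted p among these 9. Gm20594, a predicted gene on chromosome 6, was by far the most abundant, at 571.5, 587.6 and 504.6 against 826.7, 907.6 and 821.4 FPKM (adjusted p = 0.0157), and lost its call with GC and length trends removed. Fgfr1op2 was at 67.7, 71.5 and 65.5 against 106.6, 94.4 and 89.2 FPKM (adjusted p = 0.0408). Car2, the cytosolic carbonic anhydrase that in brain is strongest in oligodendrocytes and choroid plexus, was at 53.6, 57.1 and 56.0 against 69.7, 80.4 and 78.1 FPKM (log2 change 0.44, adjusted p = 0.0434). Of the 11 oligodendrocyte markers tested, none was called, 2 had a higher log2 mean with the KO label, 3 had an unadjusted p under 0.05, all on the lower side, and their median ran from -0.302 to 0.00487 across settings. They summed to 218.6 to 398.4 against 257.7 to 291.8 FPKM, and their part in the result for Car2 was not tested. Without 1 library, each of these genes lost its call in 2 (Lurap1l) to 5 (Car2) of the 6 fits, always without WT-labelled 1 and 2, where the adjusted p reached 0.252 for Car2 and 0.0743 for Lurap1l.

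Nr1d2 encodes REV-ERB-beta, a nuclear receptor that represses genes of the circadian clock. It was at 21.6, 21.6 and 17.6 FPKM in the WT-labelled and 30.9, 30.4 and 31.1 FPKM in the KO-labelled libraries (log2 change 0.59, SE 0.0868, adjusted p = 0.0308), and was the only clock gene called of the 18 tested. Its call was lost in 5 of the 6 fits with a library left out, all but the one without KO-labelled 1, with an adjusted p of up to 0.129 without KO-labelled 2. Ciart, a repressor of the clock, was at 7.5, 5.1 and 6.18 against 9.85, 12.9 and 15.5 FPKM and just missed the threshold (log2 change 0.91, adjusted p = 0.0508). Bhlhe41, a repressor as well, was at 14.2, 15 and 12.9 against 18.0, 19.6 and 18.9 FPKM (adjusted p = 0.0592). Dbp, an output gene of the clock, was at 48.7, 38.9 and 48.3 against 54.2, 63.8 and 71.2 FPKM (adjusted p = 0.109). These 4 were the clock genes in which every KO-labelled library was the higher. In 3 every KO-labelled library was the lower. These are 22.2% and 16.7% of the 18, against 11.7% and 13.4% of all tested genes. An unadjusted p under 0.05 was found in 10 of the 18 (55.6%, against 18.0% of all tested genes), 7 higher and 3 lower. Arntl, which encodes the activator BMAL1, was at 13.5, 15.96 and 19.4 against 11.9, 12.5 and 10.5 FPKM (adjusted p = 0.132). Its relative Npas2 was at 6.7, 6.26 and 6.23 against 4.66, 5.57 and 4.21 FPKM (adjusted p = 0.14), and Csnk1e, a kinase of the PER proteins, at 29.9, 32.7 and 30.6 against 26.1, 25.98 and 27.9 FPKM (adjusted p = 0.175). Per1, Per2, Cry2, Clock and Nr1d1 overlapped between the labels. The median of the 18 was 0.19, and it stayed between 0.10 and 0.231 with other scalings and left-out libraries. In the home cage the median of the list was -0.13, and Nr1d2 had a log2 change of -0.13 (adjusted p = 0.585). The time of day at which the mice were killed is not given in the sources used here.

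No immediate early gene passed the test. Of 39 tested, limma called 0, with 3 at an unadjusted p under 0.05 (7.69%, against 18.0% of all tested genes), and their median log2 change was -0.017, with a sign that turned across settings (-0.0404 to 0.0334). Fos, a transcription factor of activated neurons, was at 41.2, 43.7 and 49.7 FPKM in the WT-labelled and 44.2, 36.1 and 47.6 FPKM in the KO-labelled libraries (adjusted p = 0.747). Arc, which acts on synaptic AMPA receptors, was at 319.8, 368.5 and 385.1 against 337.2, 351.9 and 445.5 FPKM (adjusted p = 0.764). Egr1 was at 294.3, 340.1 and 318.3 against 249.7, 291.5 and 349.0 FPKM (adjusted p = 0.647), and Npas4 at 11.7, 11.1 and 12.5 against 14.02, 11.9 and 10.4 FPKM (adjusted p = 0.906). The labels overlapped in all 4. With a standard error of 0.106 to 0.114 on the log2 scale, a small difference in these genes was not detectable, and the missing calls do not show that the levels were equal.

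Base excision repair, the pathway of NEIL3, held no other call. Of the 21 genes tested (Neil3 was not counted among them), 16 were lower on the log2 scale, 0 were called, and 3 had an unadjusted p under 0.05 (14.3%, against 18.0% of all tested genes). The median was -0.08, and it stayed negative, between -0.0966 and -0.0399, with other scalings and left-out libraries. Parp1, which senses strand breaks, was the one gene with every KO-labelled library higher, at 35.9, 36.97 and 35.7 against 39.0, 42.4 and 45.9 FPKM (log2 change 0.22, adjusted p = 0.18). Mbd4, a glycosylase for thymine mispaired with guanine, was the one with every KO-labelled library lower, at 2.35, 2.21 and 2.81 against 1.94, 2.01 and 1.62 FPKM (adjusted p = 0.245). Ogg1, the glycosylase for 8-oxoguanine, was at 3.78, 3.97 and 4.93 against 3.12, 3.99 and 2.61 FPKM (adjusted p = 0.276). The other NEIL glycosylases were low by FPKM: Neil1 was at 0.94, 1.16 and 1.31 against 0.77, 1.23 and 0.69 FPKM (adjusted p = 0.525), and Neil2, between 0.06 and 0.26 FPKM, was not tested. The genes of interstrand crosslink repair, the other pathway of NEIL3, summed to 65.6 to 67.2 FPKM in the WT-labelled and 52.9 to 58.9 FPKM in the KO-labelled libraries. None of the 11 tested was called, and 5 had every KO-labelled library lower (45.5%, against 13.4% of all tested genes).

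**Figure D4:**
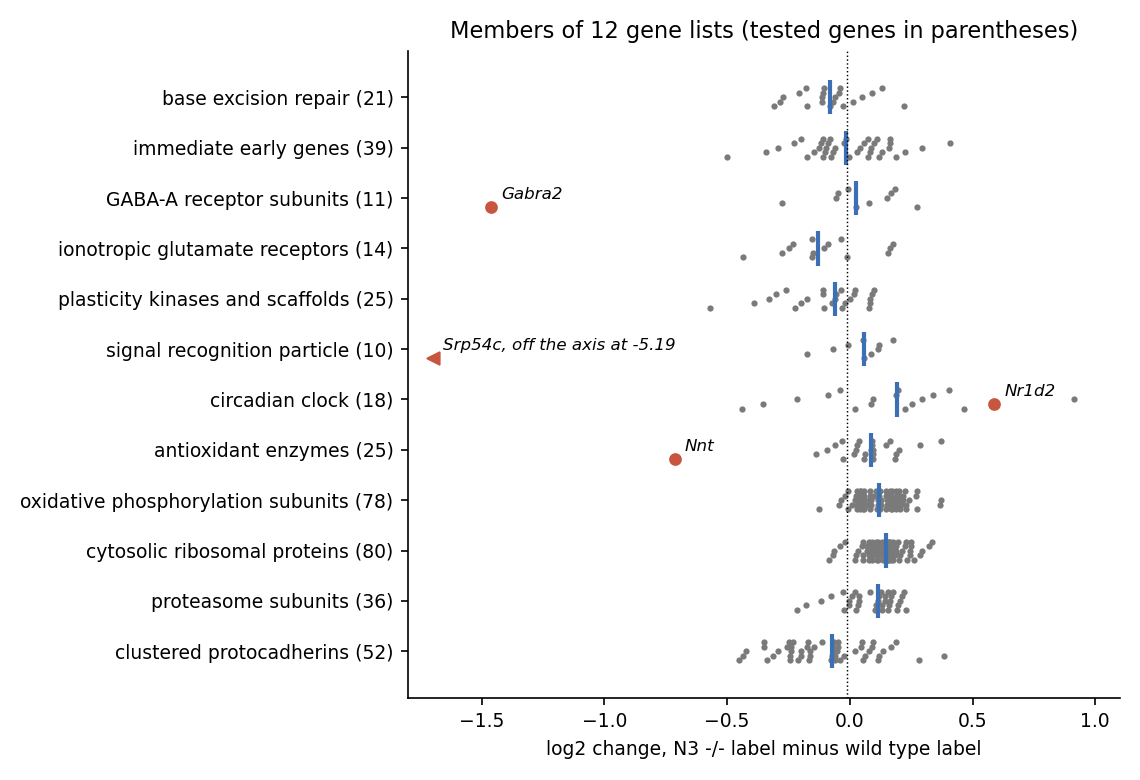
Log2 change (KO-labelled minus WT-labelled) of the tested members of 12 gene lists. Each grey dot is a gene, red marks are called genes, blue bars are list medians, and the dotted line is the median of all tested genes (-0.012). Srp54c lies off the axis at -5.19 and is drawn at the left edge.

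Long lists of housekeeping genes held no calls. Of 80 cytosolic ribosomal protein genes, 75 were higher on the log2 scale and 0 were called, with a median of 0.15. An unadjusted p under 0.05 was found in 18 (22.5%, against 18.0% of all tested genes in either direction), all higher. In 26 of the 80 every KO-labelled library was higher, 32.5% against 11.7% over all tested genes. Of 78 subunits of oxidative phosphorylation, 72 were higher and 0 were called, with a median of 0.12. An unadjusted p under 0.05 was found in 15 (19.2%, against 18.0% of all tested genes in either direction), all higher. In 26 of the 78 every KO-labelled library was higher (33.3%, against 11.7%), and in 1 lower (1.28%, against 13.4%). Of 36 proteasome subunits, 28 were higher and 0 were called, with a median of 0.12. An unadjusted p under 0.05 was found in 11 (30.6%), 9 higher and 2 lower. In 14 of the 36 every KO-labelled library was higher (38.9%, against 11.7%), and in 2 lower (5.56%, against 13.4%). All 3 medians kept their sign with other scalings and left-out libraries, between 0.0599 and 0.193. Those of 2 other lists turned their sign. Of 77 mitochondrial ribosomal protein genes, 53 were higher and 0 were called, with 9 at an unadjusted p under 0.05 (11.7%) and a median of 0.05 (-0.0215 to 0.104 across settings). Of 27 chaperones, 19 were higher and 0 were called, with 5 at an unadjusted p under 0.05 (18.5%) and a median of 0.04 (-0.000734 to 0.0796). The summed levels were widest among the KO-labelled libraries: ribosomal protein genes summed to 24577 to 25709 against 25479 to 30905 FPKM. Clustered protocadherins, adhesion molecules that give neurons their surface identity, had 37 of 52 lower, 0 called and a median of -0.07. An unadjusted p under 0.05 was found in 9 (17.3%), 2 higher and 7 lower. Every KO-labelled library was lower in 9 of the 52 (17.3%, against 13.4%), and higher in 3 (5.77%, against 11.7%). Ionotropic glutamate receptors had 11 of 14 lower, 0 called, 2 at an unadjusted p under 0.05 (14.3%), both lower, and a median of -0.13. Every KO-labelled library was lower in 5 of the 14 (35.7%, against 13.4%), and higher in 1 (7.14%, against 11.7%). Members of these lists are not independent of one another, and no test of a list was made. The called genes on the lower side had a median GC content of 54.3% (23 genes), those on the higher side 49.1% (13 genes with a transcript), and all tested genes 50.5%. Their median transcript lengths were 3642, 1788 and 2890 nt. The part of GC content and length in the calls was tested in 1 way, by removing their trends from each library before the fit, an alternative chosen after seeing the data. The fit then called 100 genes, 34 of the 37 among them. Gm3893 has no transcript and was not tested, and Gm20594 (log2 change 0.34, adjusted p = 0.264) and Sptbn4 (adjusted p = 0.0634) lost their calls.

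The dissection of CA1 was checked against markers. The 8 CA1 pyramidal markers summed to 1145 to 1212 FPKM in the WT-labelled and 1092 to 1139 FPKM in the KO-labelled libraries, and those of dentate granule cells to 16.8 to 21.4 against 13.98 to 26.4 FPKM. The CA1 sums did not overlap between the labels. None of the 8 CA1 markers was called, and 7 were lower on the log2 scale. In 3 of the 8 every KO-labelled library was lower (37.5%, against 13.4% of all tested genes). An unadjusted p under 0.05 was found in 2 of the 8 (25%, against 18.0% of all tested genes), both lower. Interneuron markers summed to 304.3 to 362.8 against 279.7 to 341.9 FPKM, and astrocyte markers to 179.3 to 231.4 against 222.2 to 252.1 FPKM, with no calls among 8 tested in each. Of the 8 astrocyte markers, 7 were higher on the log2 scale, with a median of 0.15 (0.0591 to 0.206 across settings). In 2 every KO-labelled library was higher (25%, against 11.7% of all tested genes). For 3 the unadjusted p was under 0.05 (37.5%, against 18.0%), all higher. Of the 8 interneuron markers, 6 were lower, 1 at an unadjusted p under 0.05 (12.5%). The sums of microglial markers, 85.1 to 102.1 against 91.9 to 104.1 FPKM, overlapped, as did those of dentate granule cells, interneurons and astrocytes. Choroid plexus markers were uneven between libraries: Ttr, the transthyretin of that tissue, was at 118.1, 93.6 and 2.38 FPKM in the WT-labelled and 0.23, 0.04 and 2.35 FPKM in the KO-labelled libraries (log2 change -4.37, adjusted p = 0.114). Its groups did not overlap, with WT-labelled 3 just above KO-labelled 3. The 6 choroid plexus markers summed to 16.3 to 131.8 against 10.6 to 16.6 FPKM, with Clic6, Kcnj13, Aqp1 and Folr1 below 0.7 FPKM throughout and at 0 in some libraries. The part of these markers in the called differences was not tested.

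Around Neil3 itself, on chromosome 8, 0 of the 13 tested genes within 5 Mb were called, with 2 in which every KO-labelled library was higher (Scrg1 and Sap30) and 4 in which every one was lower (Aga, Vegfc, Wdr17 and Galntl6). Those 6, which are named after their values were seen, were also the ones with an unadjusted p under 0.05. They are 46.2% of the 13, where 25.1% of all tested genes did not overlap in either direction and 18.0% had such a p. Several lay just past the threshold: Scrg1, 3.82 Mb away, had a log2 change of 0.48 (adjusted p = 0.0508), Wdr17, 0.99 Mb away, of -0.49 (adjusted p = 0.0521) and Vegfc, 0.438 Mb away, of -0.62 (adjusted p = 0.053). The nearest gene, Aga, the lysosomal aspartylglucosaminidase 0.0634 Mb away, had a log2 change of -0.56 (adjusted p = 0.0946). In the home cage, where 3.46% of all tested genes were called, Scrg1 (log2 change 0.98, adjusted p = 0.002) and Wdr17 (-0.67, adjusted p = 0.0131) were called in the same direction. Not called there were Aga (-0.54, adjusted p = 0.0899), Vegfc (-0.50, adjusted p = 0.0762), Galntl6 (-0.08, adjusted p = 0.766) and Sap30 (0.08, adjusted p = 0.842). Within 20 Mb, 2 of 174 tested genes were called: Dctd, 5.45 Mb away, and Ap1m1, 18.6 Mb away.

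The same label contrast in the home cage, 2 libraries against 2, measured the 37 genes in other mice. It was fitted with all 10 libraries, so that the groups shared 1 estimate of the spread, and called 400 of 11577 genes (3.46%). That count rested on single libraries too, at 16 and 189 when the home cage library WT-labelled 1 or 2 was left out, 13 when it was KO-labelled 2, and 192, 225 and 228 when it was the exploration library WT-labelled 1, WT-labelled 2 or KO-labelled 2. The shared spread took in the exploration libraries by which the 37 were chosen, so home cage calls of the 37 are not independent of that choice. Of the 37, 27 changed in the same direction in the home cage, a share not computed for all tested genes. Calls in both environments numbered 10, all in the same direction. These 10 are 27.0% of the calls after exploration and 2.5% of those in the home cage. They were Neil3, Ccl21b, Gm3893 and Gm20594 on the higher side, and Srp54c, Erdr1, Wdfy1, Mid1, Nnt and 1700047I17Rik2 on the lower. Among them, Neil3, Ccl21b, Gm3893, Srp54c and Erdr1 had entered the test through the group in which they were high. Srp54c was at 42.5 and 39.4 FPKM in the WT-labelled home cage libraries and listed at 0 in both KO-labelled ones. Ccl21b was listed at 0 with the WT label in both home cage libraries, and stood at 26.8 and 26.1 FPKM with the KO label. Mid1 was at 19.6 and 17.5 against 3.26 and 3.36 FPKM, and Nnt at 10.1 and 9.56 against 4.05 and 4.62 FPKM.

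Gabra2 fell less in the home cage, at 39.5 and 49.0 against 23.9 and 34.4 FPKM (log2 change -0.60, adjusted p = 0.0653), with groups that did not overlap. The difference between the 2 changes was not called (-0.86 on the log2 scale, adjusted p = 0.0683). All libraries were separated in the same direction in the home cage in 23 of the 37, and the other way round in 3. The share of all tested genes so separated in the home cage was not computed, so neither count is read as a result about these genes. Bok was at 15.6 and 6.44 FPKM in the WT-labelled and 4.53 and 4.99 FPKM in the KO-labelled home cage libraries (log2 change -0.95, adjusted p = 0.101). Marcksl1 was at 29.7 and 42.9 against 58.8 and 73.0 FPKM (log2 change 0.86, adjusted p = 0.0653), and Car2 at 45.8 and 41.2 against 37.2 and 30.5 FPKM (log2 change -0.36, adjusted p = 0.0909). A test of the difference between the environments in the label contrast with limma called 0 of 11577 genes (0%), with 1856 genes at an unadjusted p under 0.05. The smallest adjusted p was 0.0506, and 461 genes, 14 of the 37 among them, were under 0.1. The 37 were chosen by the exploration contrast, which is part of this difference, so the 14 are not independent evidence. The count of 0 called also moved: it was 116 with median-of-ratios size factors, and leaving out a home cage library made it 427 (KO-labelled 1) or 104 (WT-labelled 2). Leaving out an exploration library made it 325 (KO-labelled 1), 40 (WT-labelled 3) or 2 (KO-labelled 2). The home cage values stand in a block of their own, so block and environment cannot be told apart.

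**Figure D5:**
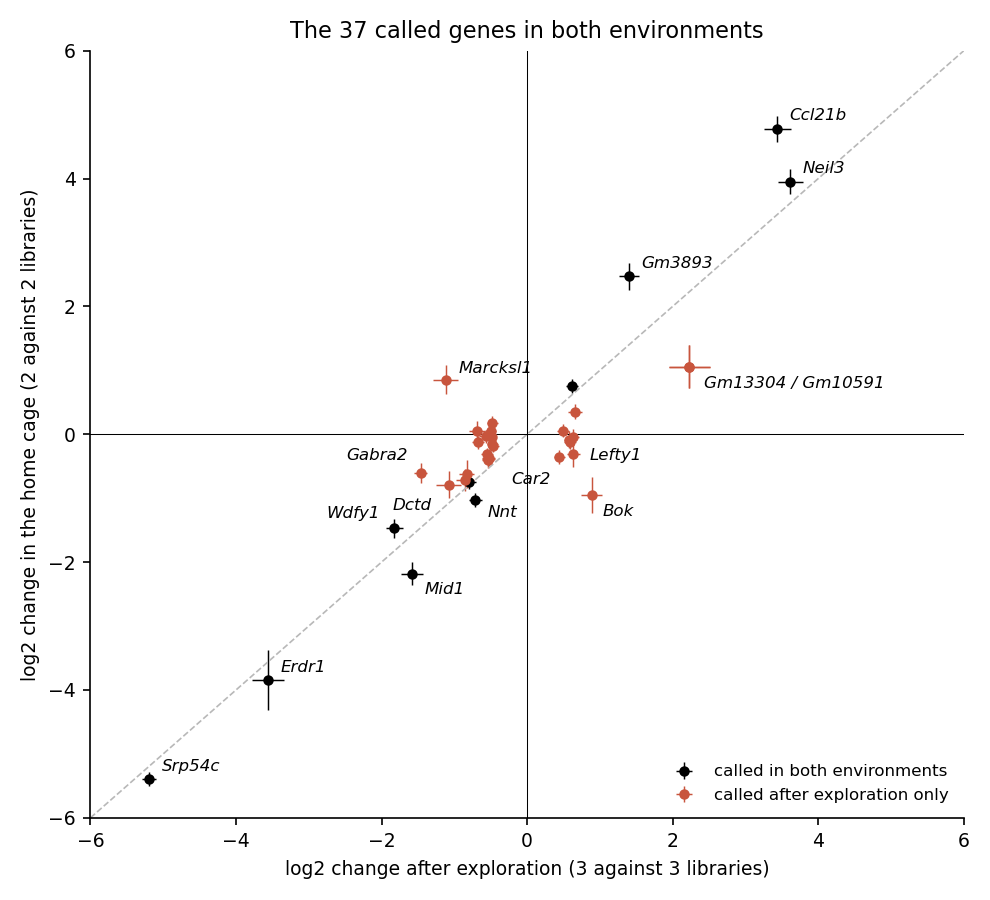
Log2 change by label (KO-labelled minus WT-labelled) after exploration, on the x axis, and in the home cage, on the y axis, for the 37 genes called after exploration. Bars are standard errors, black points were called in both environments, and the dashed line marks equal changes. The 10 black points lie at the lower left and the upper right, with the same sign on both axes, and Bok, Marcksl1 and Car2 have opposite signs.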

How the data were processed

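CA1 expression was analysed in the 6 exploration libraries, with the 4 home cage libraries for comparison. Values of the other 6 samples, of a learning condition, were not used here. The authors deposited FPKM values, to 2 decimals, in 1 block of columns per environment. HISAT, StringTie, GATK, Bowtie2, RSEM and the builds GRCm38 and mm10 are named, without versions, in the submitters' processing notes; which step made the values, and whether the 2 blocks were normalized together, is not given in the sources used here. FPKM are not counts, so no count test was run.

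Genes with at least 1 FPKM in at least 2 of the 6 libraries were fitted with limma 3.58.1 (R 4.3.3) on log2(FPKM + 1). The added 1 FPKM understates the change of low genes. The fit had a variance trend, with 4 residual and 5.54 prior degrees of freedom. Fold changes are KO-labelled minus WT-labelled. The home cage contrast and the difference between environments used 1 fit of all 10 libraries. The fit was tested on simulated data. P-values were adjusted by Benjamini-Hochberg over all 11577 genes. Symbols that read as dates (26) were restored by gene ID. Coordinates and promoter windows are from RefSeq, GRCm38.p6, matched by gene ID for 99.8% of tested genes, and transcripts from GENCODE. Sequences were aligned with Biopython 1.88.

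Members, lists and tests were chosen with earlier results of these data known. The genes named were Neil3, the 14 largest rises and falls among called genes without overlap, up to 5 called genes of each list, Fos, Arc, Egr1, Npas4, Nnt, all tested GABA-A receptor subunits, and called genes within 5 Mb of Neil3; others are marked or come from lists. Some genes under this rule are not reported here. The fit was repeated with a smaller pseudocount (0.1), without a filter and with one of 5 FPKM, after scaling by size factors or by quantiles, without the variance trend, with robust estimation, with all 10 libraries, and without each library in turn.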

Additional observations from a re-analysis of the deposited data

How the results depend on the processing

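The 37 calls after exploration were 8 with no filter on low values, 86 with a filter of 5 FPKM, 65 with quantile normalization, 17 with no variance trend, 74 with all 10 libraries in 1 fit, 8 to 151 with 1 library left out, and 100 with GC and length trends removed, which was chosen after seeing the data. They were 34 with a pseudocount of 0.1, 54 with size factors and 37 with robust empirical Bayes. Under every alternative that tested them, 7 genes stayed called: Neil3, Ccl21b, Gm3893, Srp54c, Erdr1, Wdfy1 and Gabra2. All of these except Wdfy1 and Gabra2 had entered the main test through the group in which they were high. Gm3893 was not tested with a filter of 5 FPKM or with GC and length trends removed. None of the 37 called genes changed sign in the alternatives that tested them. Of 14 named genes that were not called, 8 changed sign in at least 1, among them Arc (-0.0501 to 0.151), Fos (-0.158 to 0.0371), Egr1 (-0.232 to 0.00871) and Npas4 (-0.0736 to 0.126), as did 12 of 31 list medians. The Neil3 difference lay between 10.1 and 13.5 FPKM with 1 library left out. The home cage count of 400 was 67 with no filter and 13 to 556 with 1 library left out. The count of 0 for the difference between environments was 116 with size factors and 0 to 427 with 1 library left out. Causes were not tested, except that a filter changes how many genes are tested (17763 with none, 8321 at 5 FPKM). No paired analysis was possible because the replicate numbers only name libraries and the titles are animal codes that no other group shares. Depth limits low values: a listed 0 does not show absence, and 1 fragment is worth more on a short transcript.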
